A study of Homo sapiens with 12 samples.

Results

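Untreated HCC70 cells were compared with untreated MDA-MB468 cells, both human cell lines of triple-negative breast cancer (TNBC), the breast cancers that lack estrogen receptor, progesterone receptor and amplified HER2. The samples were chosen by their labels as the vehicle library of each line in the XY018 and atorvastatin (ATV) experiment, 2 of the 12 libraries of the series, with 1 library per line. Cells in both groups had received vehicle for 24 h, and HCC70 cells were kept in RPMI with fetal bovine serum while MDA-MB468 cells were, by the labels, kept in RPMI with serum and insulin; the study's methods name DMEM for MDA-MB468 instead, so line and medium cannot be told apart. The 4 other libraries of each line were treated for 24 h with XY018, a nuclear receptor antagonist, at 1.25 or 2.5 µM, with the statin ATV at 1.25 µM, or with XY018 and ATV at 1.25 µM each; they enter only as a check on whether a difference was present in every library. A vehicle library of MDA-MB468 from the separate GSK805 experiment served as the second view of that line. Of the 16384 genes listed in both tables, 12460 reached 1 FPKM (fragments per kilobase of transcript, scaled to the mapped total, a level per length) in at least 1 vehicle library and were compared.

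HCC70 and MDA-MB468 are both classed among basal-like breast cancer lines, whose cells carry keratins and adhesion molecules of the basal layer of the mammary duct beside luminal keratins. MDA-MB468 is known for amplification of EGFR and loss of RB1 and SMAD4. Each difference is given as a log2 ratio of HCC70 over MDA-MB468 FPKM after 0.1 was added to both, minus the median of all ratios (-0.09), because each line's table was normalized apart. Positive ratios are higher in HCC70. The vehicle comparison has 1 library per line within the experiment, the treated libraries are not replicates of it, and no test was run. A gene was counted as different when the ratio reached 2-fold; culture, library and table are all confounded with the line and cannot be told apart. The spacing of low FPKM values gave an estimated depth of 9500000 fragments for HCC70 and 18900000 for MDA-MB468, so that low levels are less exactly known in HCC70.

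The vehicle-treated lines differed by 2-fold or more at 4789 genes. Of the 12460 genes, 2484 (19.9%) were higher in HCC70 and 2305 (18.5%) were higher in MDA-MB468, while 5097 were within 1.5-fold of each other. In bulk RNA, fewer cells carrying a transcript and less of it per cell cannot be told apart. The difference reached 32-fold at 223 genes on the HCC70 side and at 128 genes on the MDA-MB468 side. When each HCC70 library was set against the MDA-MB468 library of the same treatment, 1725 genes (13.8%) were 2-fold or more higher in HCC70 in all 5 pairs and 1504 (12.1%) were higher in MDA-MB468 in all 5. The balance between both directions depended on the scaling. Calls higher in HCC70 made up 51.9% as reported, 77.9% when ratios were centred on cytosolic ribosomal protein genes, and 38.0% when centred on housekeeping genes, scalings that moved the median of all genes to 0.61 and -0.27. The 10 most abundant genes took 15.18% of summed FPKM in the HCC70 vehicle library (14.76% to 16.59% over 5 libraries) and 6.72% in that of MDA-MB468 (6.72% to 10.63%), with no overlap, and 46.42% in the GSK805 vehicle library of MDA-MB468, whose table lists 57909 entries.

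**Figure D1:**
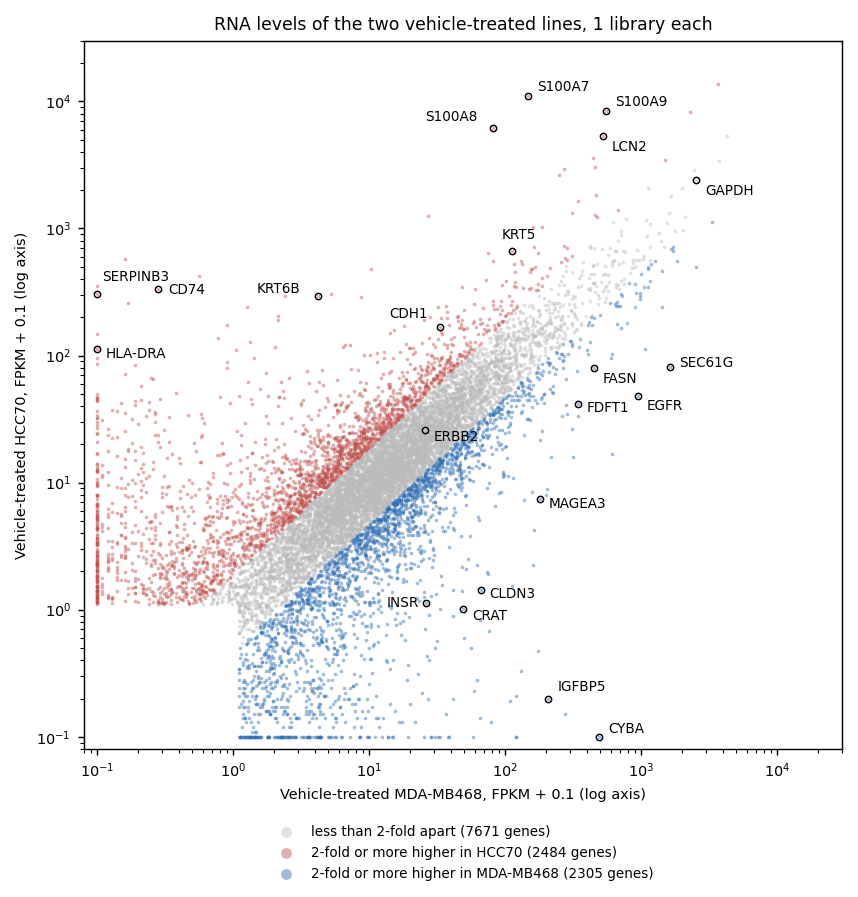
Each point is a gene, placed by its FPKM + 0.1 in vehicle-treated MDA-MB468 (horizontal, log axis) and vehicle-treated HCC70 (vertical, log axis), 1 library each, red for the 2484 genes 2-fold or more higher in HCC70 and blue for the 2305 higher in MDA-MB468. S100A7 and S100A8 stand far above the diagonal, EGFR and CYBA far below it, and ERBB2 and GAPDH lie on it.

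The most abundant transcripts were partly shared. In HCC70 they were MTRNR2L2 at 13666 FPKM, the antimicrobial S100 proteins S100A7 (11038 FPKM) and S100A9 (8360 FPKM), MTRNR2L8 at 8272 FPKM and S100A8 at 6155 FPKM. In MDA-MB468 they were the ferritin heavy chain FTH1 at 4270 FPKM, the actin ACTB at 3718 FPKM, MTRNR2L2 at 3685 FPKM, the elongation factor EEF1A1 at 3307 FPKM and GAPDH at 2533 FPKM. Of these, FTH1 (5378 FPKM), ACTB (3399) and GAPDH (2388) stood at similar or higher levels in HCC70, and EEF1A1 stood at 1129. MTRNR2L2 and MTRNR2L8 are near-copies of mitochondrial ribosomal RNA, so their reads may belong elsewhere. S100A7 and S100A8 stood at 148 and 81.8 FPKM in MDA-MB468.

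Markers of cell identity fitted the labels of both lines. The estrogen receptor gene ESR1 stood at 0.56 FPKM in HCC70 and 0.48 in MDA-MB468, and ERBB2, which encodes HER2, at 25.6 in both (log2 ratio 0.09). PGR was not listed in both tables and is not analysed here. The epithelial adhesion molecule EPCAM stood at 69.1 against 112 FPKM and the luminal keratin KRT19 at 871 against 1109, HCC70 given first here and wherever values are set against each other. Both vehicle libraries carried epithelial genes at high levels and ESR1 below the 1 FPKM limit, while the GSK805 vehicle library of MDA-MB468 listed ESR1 at 1.77. Of the 6 clinical receptors and related nuclear receptors listed, 2 were compared, and the estrogen-binding receptor GPER1 was the 1 that differed (1.99 against 0.47 FPKM). Among 24 genes of leukocytes, endothelium and stroma, 15 were in both tables, 5 reached 1 FPKM, 3 were higher in HCC70 and 1 was higher in MDA-MB468 (median 1.96), which turned to 2 and 3 of 7 (median -0.65) against the GSK805 vehicle library. Their summed level was 253.8 FPKM in HCC70 and 32.1 in MDA-MB468, most of it CD14 (170 against 17.9), a lipopolysaccharide receptor, and CD68 (76.5 against 4.42), a lysosomal protein. The defining markers PTPRC of leukocytes (0.22 and 0.60 FPKM), CD3E of T cells (0.07 and listed at 0) and VWF of endothelium (0.04 and 0.02) were near 0 in both libraries, while PECAM1 (1.03 against 0.21), KDR (0.05 against 2.22) and the collagen COL1A1 of stroma (4.45 against 4.96) were not at 0 in either. The part of such genes in the results was not tested.

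Most compared basal epithelial markers were higher in HCC70. Of 16 compared basal markers, 9 were 2-fold or more higher in HCC70 and 1 was higher in MDA-MB468, and 8 were higher in HCC70 in all 5 pairs; the median log2 ratio was 2.21 beside 0 over all genes. KRT5, the defining basal keratin, stood at 660 FPKM in HCC70 and 112 in MDA-MB468 (log2 ratio 2.64). Its levels did not overlap over the 5 libraries of each line, 315 to 660 in HCC70 and 40.2 to 137 in MDA-MB468. The GSK805 vehicle library of MDA-MB468, however, listed 498. Centred on the median of all ratios against that library (-0.68), the KRT5 log2 ratio there was 1.08. Of the stress-inducible keratins, KRT6A, KRT6B and KRT16 showed wider gaps, and KRT17 a narrower one (379 against 118 FPKM, log2 ratio 1.78). KRT6B stood at 292 against 4.09 FPKM, KRT16 at 287 against 8.66, and KRT6A at 85.4 against a listed 0 (7.30 in the GSK805 vehicle library), and KRT6A and KRT6B are near-identical, which makes the division between them uncertain. The laminin chains on this list were higher in HCC70, LAMA3 at 50.2 against 0.28 FPKM and LAMB3 at 122 against 6.52, whereas LAMB1 (1.87 against 15.9) and LAMA5 (19.3 against 43.6), laminin chains of the matrix list, were higher in MDA-MB468. The integrin chain ITGA6, a laminin receptor, was the member higher in MDA-MB468, at 34.5 against 14.1 FPKM (log2 ratio -1.20). KRT14 (7.32 against 4.63 FPKM), KRT15 (8.85 against 9.77), ITGB4 (24.05 against 43.57), KRT23, CAV1 and SFN did not reach 2-fold. The GSK805 vehicle library listed KRT15 at 64.2 FPKM and ITGB4 at 152. Against it 9 members were higher in HCC70 and 2 in MDA-MB468. TP63, the transcription factor of basal cells, stayed below 1 FPKM in both lines (0.92 and 0.85).

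Luminal genes were split. Of 16 compared members, 4 were higher in HCC70 and 5 in MDA-MB468, with a median of -0.04 that became 0.57 on the ribosomal scaling. The keratin pair of simple epithelium was lower in HCC70, KRT8 at 313 against 918 FPKM and KRT18 at 247 against 652, though neither kept 2-fold in all 5 pairs. CLDN3, a tight junction protein, stood at 1.32 FPKM in HCC70 and 66.0 in MDA-MB468 (log2 ratio -5.45), and SPDEF, a transcription factor of secretory epithelium, at 13.2 and 76.4. In the other direction the mucin MUC1 stood at 554 against 131 FPKM and the secretory disulfide isomerase AGR2 at 200 against 44.5. Among 17 transcription factors of the mammary lineage, 2 were higher in HCC70 and 5 in MDA-MB468, with a median of -0.37 that became 0.24 on the ribosomal scaling. BCL11A, known in basal-like breast cancer, was at 0.04 against 4.61 FPKM, the homeobox factor EN1 at 0.04 against 5.55, FOXC1 at 18.1 against 66.2 and SOX9 at 21.4 against 57.9. RUNX1 (17.1 against 6.01) and KLF5 (60.5 against 25.9) were the 2 higher in HCC70.

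Secreted defence and acute phase proteins had the highest median of the 30 lists between the vehicle libraries; against the GSK805 vehicle library it was 2.47, below the 2.84 of antigen presentation. Of 29 members compared, 26 were 2-fold or more higher in HCC70, each of them in all 5 pairs, and S100A1 alone was higher in MDA-MB468 (0.54 against 4.34 FPKM). The median log2 ratio was 2.98, and the summed level was 42807 FPKM in HCC70 against 3585 in MDA-MB468. S100A8 and S100A9 together form calprotectin, which sequesters metal ions from microbes. S100A8 reached 6155 FPKM in HCC70 (3687 to 6155 over 5 libraries) and 81.8 in MDA-MB468 (4.61 to 81.8), and S100A9 reached 8360 and 551. The siderophore-binding protein LCN2 stood at 5323 against 520 FPKM, the elastase inhibitor PI3 at 3612 against 444, and SLPI, a further protease inhibitor, at 1324 against 309. SERPINB3 and SERPINB4, neighbouring and near-identical inhibitors of cysteine and serine proteases, were at 304 and 576 FPKM in HCC70 and at a listed 0 and 0.06 in MDA-MB468. Reads can be shared between that pair, so the division between them is uncertain. The iron-binding protein LTF stood at 36.7 against 0.04 FPKM and the protease inhibitor CST3 at 36 against 0.17. S100A14 (419 against 266 FPKM) and S100A2 (18.6 against 28.3) did not reach 2-fold, so the difference did not cover every S100 gene.

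**Figure D2:**
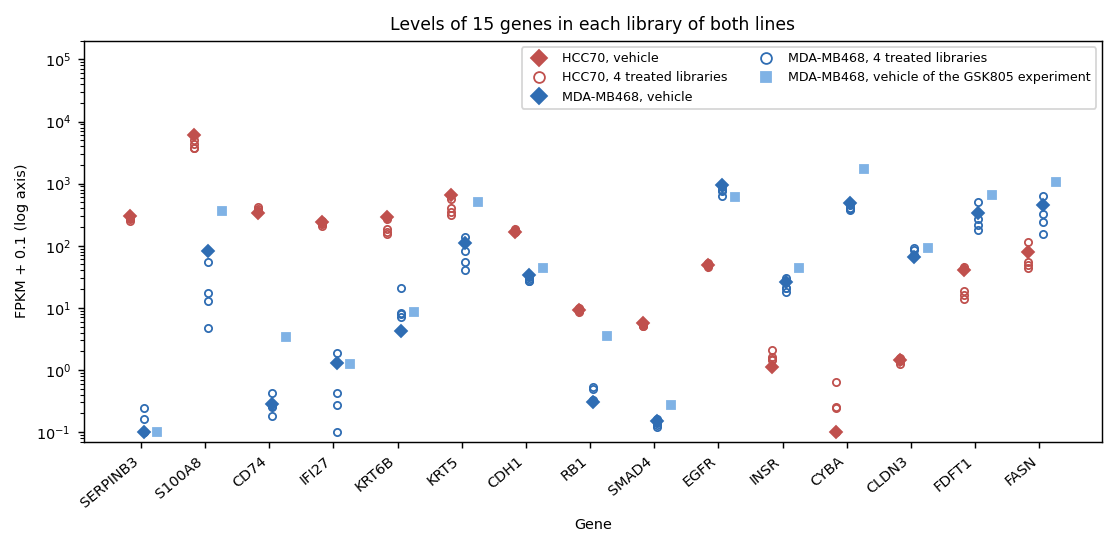
FPKM + 0.1 (log axis) of 15 genes in the vehicle library (diamonds) and the 4 treated libraries (open circles) of HCC70 (red) and MDA-MB468 (blue), with the vehicle library of the GSK805 experiment as pale squares. S100A8 lies between 3687 and 6155 FPKM in HCC70 and between 4.61 and 81.8 in MDA-MB468, and EGFR lies between 45.4 and 52.5 in HCC70 and between 638 and 944 in MDA-MB468.

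Several genes known from squamous epithelium, on none of the lists and named after their values were seen, showed the same direction. SPRR1B stood at 46.9 FPKM in HCC70 and was listed at 0 in all 5 MDA-MB468 libraries. IVL, the envelope protein involucrin, was at 23.6 against 0.02 FPKM, and SPRR2D at 29.6 against a listed 0. The HCC70 table also listed SPRR2A (287 FPKM, 195 to 327 over 5 libraries), SPRR2E (27.4) and SPRR2F (12.2), which the MDA-MB468 table did not list. The promoters of SPRR1B and LCN2 are shown as examples that hold TGANTCA, a pattern wider than TGAGTCA or TGACTCA, the usual letters of AP-1 sites. The LCN2 match and 1 of the 2 SPRR1B matches read TGAATCA. No match was found in the windows of SERPINB3, SERPINB4, S100A8 and TCN1, all higher in HCC70 as well. The 300 bases run 5′ to 3′ from 250 before to 50 after the RefSeq start (GRCh38.p14) and capitals mark the matches. TGANTCA, searched on both strands, was in 7.8% of all 27305 promoters of the RefSeq table, in 4.5% of those of genes compared, and in 12.8% of the 117 promoters found for genes at 5 FPKM or above in HCC70 and under 0.5 in all 5 MDA-MB468 libraries. It was in 6.2% of the promoters of genes 2-fold or more higher in HCC70 and in 4.6% of those higher in MDA-MB468. For genes at 5 FPKM or above in MDA-MB468 and under 0.5 in all 5 HCC70 libraries it was in 5.5%. A match is a run of letters and not a shown site.
SPRR1B (chr1:153030953-153031252, plus strand): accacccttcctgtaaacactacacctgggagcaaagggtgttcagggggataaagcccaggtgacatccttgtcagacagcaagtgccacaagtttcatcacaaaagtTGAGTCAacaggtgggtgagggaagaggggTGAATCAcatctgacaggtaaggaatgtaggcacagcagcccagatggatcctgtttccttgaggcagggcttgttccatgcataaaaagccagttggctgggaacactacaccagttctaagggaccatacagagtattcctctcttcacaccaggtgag
LCN2 (chr9:128149203-128149502, plus strand): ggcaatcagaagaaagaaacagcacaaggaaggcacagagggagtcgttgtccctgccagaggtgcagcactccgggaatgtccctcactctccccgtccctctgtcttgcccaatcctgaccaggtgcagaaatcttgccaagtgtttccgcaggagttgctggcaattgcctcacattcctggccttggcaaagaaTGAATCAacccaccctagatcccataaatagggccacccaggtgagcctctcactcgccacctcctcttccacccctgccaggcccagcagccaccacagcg

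Transcripts of MHC class II genes were abundant in HCC70 and near 0 for most of those named in MDA-MB468. Class II molecules display peptides from outside the cell to helper T cells, are usual in immune cells and can be switched on in epithelium through the coactivator CIITA. HLA-DRA stood at 113 FPKM in HCC70 (103 to 121 over 5 libraries) and was listed at 0 in all 5 MDA-MB468 libraries, where 3 fragments would have given 0.13 FPKM. CD74, the invariant chain, stood at 335 against 0.18 FPKM, HLA-DRB1 at 44.7 against a listed 0, HLA-DPA1 at 12.7 against 0.16, and the peptide loader HLA-DMA at 52.8 against 3.99. CIITA itself was at 6.30 against 0.32 FPKM (log2 ratio 4.02). HLA-DRB1 reads can be shared with its close copies, so its own level is uncertain. The promoters of CD74, HLA-DRB1 and HLA-DMA are printed because class II promoters are known to hold a CCAAT-type box; capitals mark CCAAT on either strand in the same window and build. CD74 held 1 match on the printed strand, HLA-DRB1 held 1 on each strand, and both matches of HLA-DMA were on the opposite strand. CCAAT is common, being in 35.7% of all promoters, and none was found in the window taken for HLA-DPA1. That window follows the RefSeq start used for the gene, and windows at other starts were not searched.
CD74 (chr5:150412861-150413160, minus strand): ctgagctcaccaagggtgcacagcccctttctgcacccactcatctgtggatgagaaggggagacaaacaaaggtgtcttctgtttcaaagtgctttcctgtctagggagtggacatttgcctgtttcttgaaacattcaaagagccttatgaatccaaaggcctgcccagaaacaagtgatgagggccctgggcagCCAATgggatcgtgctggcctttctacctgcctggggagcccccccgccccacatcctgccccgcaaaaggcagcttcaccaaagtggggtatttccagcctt
HLA-DRB1 (chr6:32589799-32590098, minus strand): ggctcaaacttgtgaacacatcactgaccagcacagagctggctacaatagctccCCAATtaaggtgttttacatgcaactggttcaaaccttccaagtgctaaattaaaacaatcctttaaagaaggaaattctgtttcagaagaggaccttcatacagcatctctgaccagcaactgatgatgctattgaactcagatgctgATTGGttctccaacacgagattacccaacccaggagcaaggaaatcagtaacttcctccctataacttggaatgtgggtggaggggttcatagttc
HLA-DMA (chr6:32953048-32953347, minus strand): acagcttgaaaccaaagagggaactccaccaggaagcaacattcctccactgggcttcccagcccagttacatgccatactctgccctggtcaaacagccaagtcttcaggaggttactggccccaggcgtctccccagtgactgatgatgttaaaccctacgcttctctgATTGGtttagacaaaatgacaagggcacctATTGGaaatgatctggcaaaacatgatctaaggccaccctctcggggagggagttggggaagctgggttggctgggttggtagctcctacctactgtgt

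Over all 21 antigen presentation genes, 10 were higher in HCC70, each in all 5 pairs, and 3 in MDA-MB468, with a median of 0.58, and against the GSK805 vehicle library 16 and 1, with a median of 2.84. CD274, the checkpoint ligand PD-L1, belonged to the former at 9.52 against 0.12 FPKM. Class I genes did not follow class II as a group. HLA-C stood at 265 FPKM in HCC70 and 543 in MDA-MB468 (log2 ratio -0.94), and B2M, the shared light chain, at 1223 and 472 (1.47). Interferon-stimulated genes, which cells raise against viruses, were higher in HCC70 at 16 of 27 and in MDA-MB468 at 3, with a median of 1.35; 8 kept 2-fold toward HCC70 in all 5 pairs. IFI27 stood at 239 against 1.18 FPKM, IFI6 at 107 against 16.7 and BST2 at 236 against 68.4. IRF7, a transcription factor of the interferon response, was at 3.74 in HCC70 against 20.9 in MDA-MB468, and IFITM3 at 255 against 644. IFITM2 (60.2 against 9.40 FPKM) was listed at 117 in the GSK805 vehicle library, above HCC70.

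Of 25 cytokines and NF-kB targets 9 were higher in each line, with a median of 0.48, but the ribosomal scaling gave 13 toward HCC70 and 6 toward MDA-MB468, and the GSK805 vehicle library 11 and 2 of 23. The monocyte attractant CCL2 (17.6 against 0.07 FPKM), the T-cell attractant CCL5 (58.5 against 4.5) and the inflammatory cytokine IL1B (7.94 against a listed 0) were higher in HCC70. Higher in MDA-MB468 were the macrophage growth factor CSF1 (3.03 against 38.5), the leukocyte adhesion molecule ICAM1 (15.6 against 103) and the lymphotoxin chain LTB (listed at 0 against 12.4). LTB was at 0.89 and CCL5 at 0.23 FPKM in the GSK805 vehicle library.

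Junction genes were higher in HCC70 at 10 of 24 members and in MDA-MB468 at none, with a median of 0.65, and 6 kept 2-fold in all 5 pairs. The count was 7 on the housekeeping scaling and 16 on the ribosomal scaling or against the GSK805 vehicle library, with none toward MDA-MB468 in each case. The desmosomal genes PKP1 (42.0 against 0.05 FPKM) and DSG3 (15.2 against 0.06), typical of squamous epithelium, showed the widest gaps, while the general desmosomal plaque protein DSP stood at 134 and 99.2. E-cadherin, CDH1, was at 168 FPKM in HCC70 and 33.1 in MDA-MB468 (log2 ratio 2.43, 95% counting interval 2.37 to 2.50), and its 5 libraries spanned 164 to 184 and 27.1 to 33.1. Of 9 compared mesenchymal genes, 5 were higher in HCC70 and 2 in MDA-MB468 (median 1.26), but 4 and 3 of 10 against the GSK805 vehicle library (median 0.33), where fibronectin, FN1, turned from 61.9 against 24.8 FPKM to 61.9 against 334. The former included TGFBI, a matrix protein, at 95.5 against 1.34 FPKM, and the transcription factor SNAI2 at 5.14 against a listed 0. Vimentin, VIM, was low in both vehicle libraries, at 1.32 and 1.78 FPKM, but 61.5 in the GSK805 vehicle library. Matrix and integrin genes were higher in HCC70 at 7 of 24 and in MDA-MB468 at 8 (median 0.30), with 12 and 6 on the ribosomal scaling and 6 and 9 on the housekeeping scaling. The integrins ITGA5 (41.5 against 1.28 FPKM), ITGA2 (23.7 against 1.05) and ITGB1 (391 against 71.9) and the matrix protein TNC (64.3 against 5.76) were higher in HCC70, and the basement membrane collagen COL4A2 (listed at 0 against 4.99) and the hyaluronan receptor CD44 (80.0 against 265) in MDA-MB468.

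EGFR differed most among the members of its list in the direction of MDA-MB468. It stood at 48.0 FPKM in HCC70 and 944 in MDA-MB468 (log2 ratio -4.21, 95% counting interval -4.25 to -4.17), with 45.4 to 52.5 over the 5 HCC70 libraries and 638 to 944 over the 5 of MDA-MB468. Of its ligands, 5 were higher in HCC70 and none of those compared was higher in MDA-MB468, while TGFA (13.9 against 7.46 FPKM) and BTC (1.26 against 0.98) did not reach 2-fold. EPGN was at 8.08 against 0.22 FPKM, HBEGF at 10.2 against 1.71 and AREG at 4.63 against 0.90, all higher in HCC70 in each of the 5 pairs. LRIG1, a negative regulator of EGFR, was at 7.70 in HCC70 against 26.4 in MDA-MB468. Over the 15 compared receptors, ligands, adaptors and regulators of this list, 5 were higher in HCC70, all of them ligands, and 3 in MDA-MB468, EGFR, LRIG1 and the ubiquitin ligase CBL, with a median of 0.42. Genes that ERK signalling induces were higher in MDA-MB468 at 7 of 19 and in HCC70 at 1 (FOS, 9.82 against 2.94 FPKM), with a median of -0.74. The feedback inhibitors DUSP4 (2.42 against 25), SPRY1 (1.5 against 13.7) and SPRY4 (0.82 against 6.15) were the 3 that kept 2-fold in all 5 pairs. Against the GSK805 vehicle library the median of that list was 0.23, with 4 members higher in MDA-MB468, so the direction of the list as a whole did not carry over.

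Insulin signalling genes were higher in MDA-MB468 at 9 of 21 and in HCC70 at 5, with a median of -0.81, while the ribosomal scaling gave 8 toward HCC70 and 5 toward MDA-MB468 (median -0.20). The insulin receptor INSR stood at 1.02 FPKM in HCC70 (1.02 to 1.98 over 5 libraries) and 26.2 in MDA-MB468 (17.9 to 30.3). Its adaptor IRS1 was at 1.07 against 5.22, while the kinase AKT1 (88.8 against 78.5) was close to even. Of the 5 IGF-binding proteins on the list, only IGFBP3 was higher in HCC70, at 1035 against 159 FPKM, and IGFBP2 (9.83 against 48.2), IGFBP4 (36.6 against 84.0), IGFBP5 (0.10 against 207) and IGFBP6 (0.66 against 1.58) were higher in MDA-MB468. IGFBP5 also varied within MDA-MB468, from 6.93 to 207 over the 5 libraries. The labels name insulin in the medium of MDA-MB468 and the study's methods do not; its part in these values was not tested.

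Among 24 tumour suppressors and G1 regulators, 9 were higher in HCC70, each in all 5 pairs, and 3 in MDA-MB468, with a median of 0.44. The counts were 14 and 1 on the ribosomal scaling and 8 and 4 on the housekeeping scaling. The retinoblastoma gene RB1 was at 9.10 FPKM in HCC70 and 0.20 in MDA-MB468 (0.20 to 0.43 over 5 libraries), though 3.42 in the GSK805 vehicle library. SMAD4, which carries TGF-beta signals to the nucleus, was at 5.58 against 0.05 FPKM and 0.17 in the GSK805 vehicle library. The cell cycle inhibitors CDKN1A (88.6 against 11.4 FPKM), CDKN2B (38.4 against 6.64) and CDKN2A (343 against 120) were higher in HCC70. Of 29 mitosis and replication genes 3 were higher in HCC70 and none in MDA-MB468, with a median of 0.20. The housekeeping scaling turned this to 2 toward HCC70 and 3 toward MDA-MB468, with a median of -0.07. The ribosomal scaling gave 10 toward HCC70 and none toward MDA-MB468, and the GSK805 vehicle library 11 and 1. The proliferation marker MKI67 stood at 70.8 and 40.5 FPKM.

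The lines also differed by chromosome. On chromosome 14 the median log2 ratio of 399 compared genes was 0.78 and 35.34% were higher in HCC70; on chromosome 16 the median of 596 genes was 0.68 with 36.24% higher. Chromosomes 11, 19 and 21 lay on the other side, with medians of -0.65, -0.62 and -0.60 over 719, 967 and 121 genes, of which 34.77%, 34.95% and 33.06% were higher in MDA-MB468. Chromosome 8 had a median of -0.37 and 35.63% of its 421 genes higher in MDA-MB468. The ribosomal scaling adds 0.61 to every median, which takes those of chromosomes 8 and 21 above 0.

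**Figure D3:**
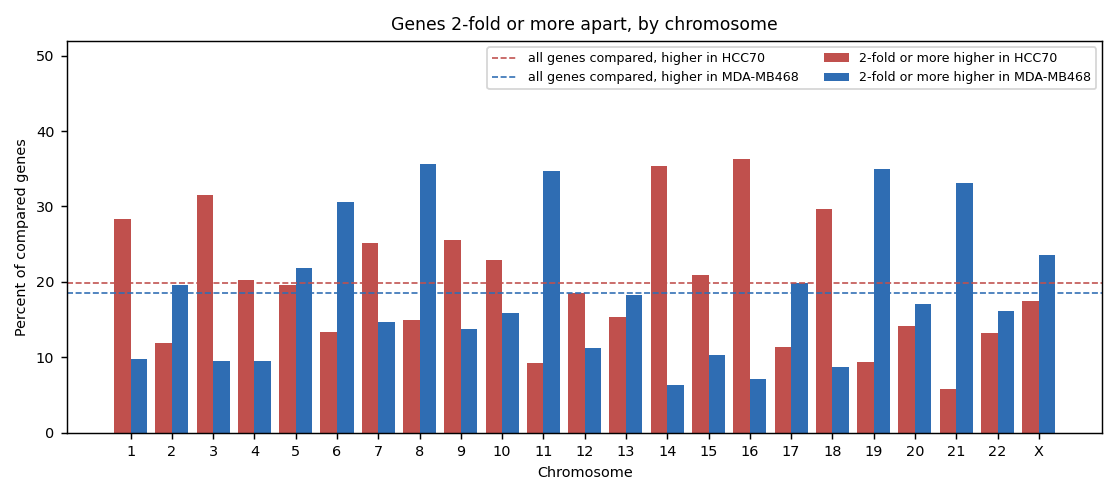
Bars give the percent of compared genes on each chromosome that were 2-fold or more higher in vehicle-treated HCC70 (red) or MDA-MB468 (blue), and dashed lines give the same over all genes, 19.9% and 18.5%. Red bars are longest on chromosomes 16, 14 and 3, and blue bars on 8, 19 and 11.

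Windows of 20 consecutive compared genes showed where these differences lay (positions on GRCh37 from GENCODE). The highest median, 4.14, belonged to chr1:151735375-153433127, from OAZ3 to S100A7, the region of the S100 and SPRR families. The second, 4.03, lay at chr16:4307187-5010742, and against the GSK805 vehicle library the order of these windows changed, at 2.83 and 5.09. There 10 compared genes in a row, from UBALD1 to PPL (chr16:4658884-5010742), stood between 3.21 and 83.5 FPKM in HCC70 and under 1 FPKM in all 5 MDA-MB468 libraries (highest 0.77). Among them the desmosomal plaque protein PPL was at 45.4 FPKM against a listed 0, the nucleosome-binding GLYR1 at 43.2 against 0.14, the histone chaperone UBN1 at 30.8 against 0.01, the ubiquitin ligase MGRN1 at 22.5 against 0.03 and SMIM22 at 83.5 against 0.09. On the near side CDIP1 (2.80 against 0.06) was also low in MDA-MB468 but under the 3 FPKM asked of HCC70 for a run, and HMOX2 (21.9 against 1.61) and NMRAL1 (56.5 against 30.5) came next. On the far side SEC14L5 (0.29 against 2.17) was higher in MDA-MB468, and NAGPA (8.82 against 3.23) was detected in both lines. The GSK805 vehicle library of MDA-MB468 gave at most 2.17 FPKM for the same 10 genes. Runs of at least 4 such neighbours numbered 4 in the genome, the others being IVL to PGLYRP3 on chromosome 1 and HLA-DRA to HLA-DQB1 on chromosome 6, both low in MDA-MB468, and GABRA3 to MAGEA12 on chromosome X, low in HCC70.

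Shorter stretches surrounded the suppressor genes that were low in MDA-MB468. Beside SMAD4 (chr18:48554898-48611415), its neighbour ELAC1 was at 1.93 against 0.09 FPKM, whereas ME2 (13.1 against 11.8) and MEX3C (11.8 against 10.7) on either side were alike. Beside RB1 (chr13:48877880-49173572), LPAR6 (2.18 against 0.15) and RCBTB2 (1.71 against 0.04), whose spans lie inside that of RB1 on the opposite strand, were low, and MED4 (12.8 against 3.92) and FNDC3A (11.5 against 4.85) farther out were detected in both. The 20 genes around RB1 had a median of 1.30, with 13 higher in HCC70.

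EGFR (chr7:55086710-55279321) lay in the window of lowest median, -2.37, at chr7:48026745-63727309, where 14 of 20 genes were higher in MDA-MB468. Against the GSK805 vehicle library that window had a median of -1.47, and the 20 genes centred on EGFR had a median of -1.54 between the vehicle libraries, with 11 higher in MDA-MB468 and 4 in HCC70. The translocon subunit SEC61G was at 80.9 FPKM in HCC70 and 1634 in MDA-MB468, LANCL2 at 8.33 and 156, VOPP1 at 112 and 1061, the serine synthesis enzyme PSPH at 15.7 and 219, and the chaperonin subunit CCT6A at 103 and 611. The ratio was -4.24 at SEC61G, -4.21 at EGFR and -4.12 at LANCL2, and elsewhere in the window it ranged widely, from -2.47 at CCT6A and -2.45 at CHCHD2 to 3.22 at PHKG1 between them and -4.46 at SUN3 (0.06 against 3.64 FPKM), with NUPR2 listed at 0 against 8.46. Almost as low, also -2.37, was chr11:33037422-36253686, from DEPDC7 to LDLRAD3, where 18 of 20 genes were higher in MDA-MB468, among them the pyruvate dehydrogenase subunit PDHX (6.59 against 51.1 FPKM) and CD44. At chr19:9920943-10491284, from FBXL12 to TYK2 (median -2.24), 18 of 20 were higher in MDA-MB468, with the DNA methyltransferase DNMT1 at 51.3 against 220 FPKM and ICAM1. At chr8:30535583-38133076, from GSR to PLPP5 (median -2.17), all 20 were higher in MDA-MB468, with the translation repressor EIF4EBP1 at 33.4 against 341 FPKM. Of 11971 overlapping windows, 781 had a median 2-fold or more toward HCC70 and 698 toward MDA-MB468. DNA copy number was not measured, and its part in these runs was not tested.

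**Figure D4:**
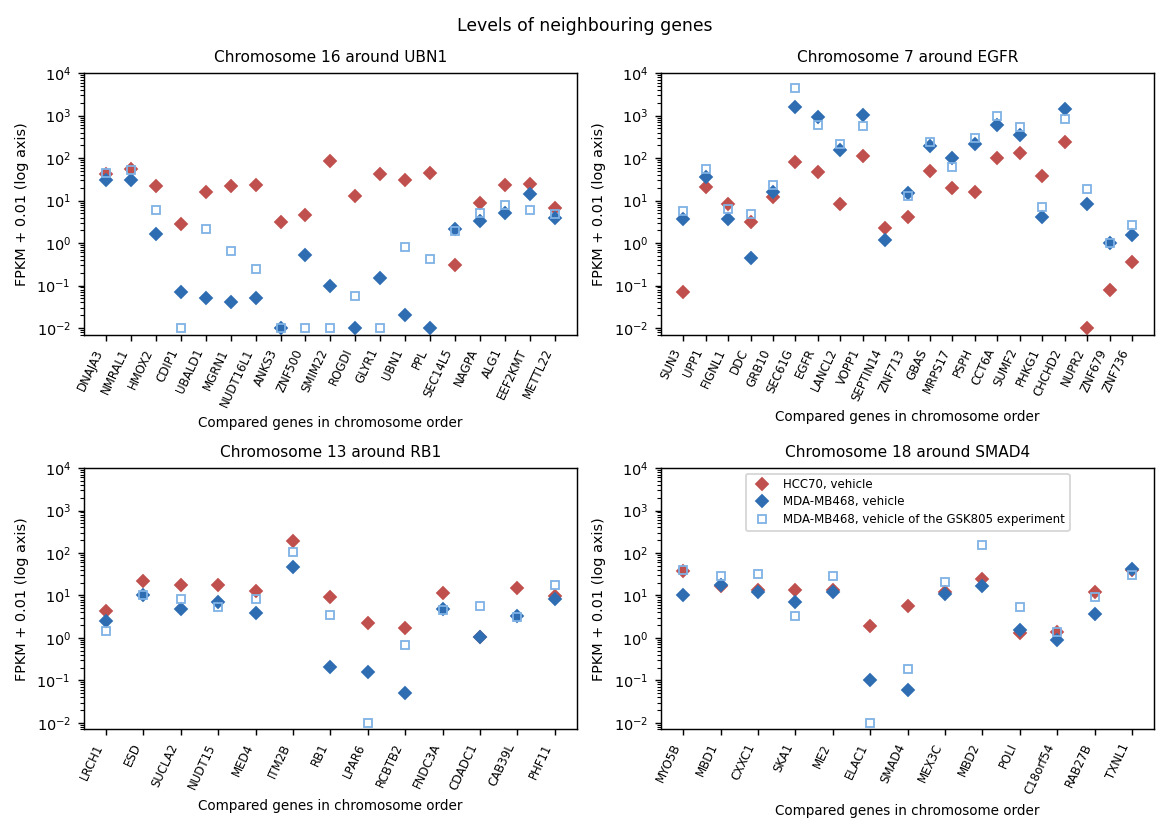
FPKM + 0.01 (log axis) of compared genes in chromosome order around UBN1, EGFR, RB1 and SMAD4 in vehicle-treated HCC70 (red), vehicle-treated MDA-MB468 (blue) and the vehicle library of the GSK805 experiment (open squares). From UBALD1 to PPL MDA-MB468 stays under 1 FPKM while HCC70 lies between 3.21 and 83.5, and from SEC61G to VOPP1 MDA-MB468 lies above HCC70 at each gene.

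Cholesterol biosynthesis, the pathway the series was made to study, had a median near that of all genes, on a scale that other settings moved either way. Of its 21 enzymes 6 were higher in MDA-MB468, none in HCC70, and 4 of the 6 kept 2-fold in all 5 pairs. The median was -0.19. The ribosomal scaling gave 0.41 with 4 members toward HCC70 and 2 toward MDA-MB468, the housekeeping scaling -0.46 with none and 8, and the GSK805 vehicle library -0.62 with 3 and 6. FDFT1, squalene synthase, stood out at 41.2 FPKM in HCC70 and 342 in MDA-MB468 (log2 ratio -2.96), a gap present on each scaling. It was the last gene of a 20-gene window at chr8:356428-11696904 (median -2.17), with 15 higher in MDA-MB468 and 1 in HCC70. HMGCS1, which makes HMG-CoA, was at 16.1 against 57.1, DHCR7, the last step of the Kandutsch-Russell branch, at 92.0 against 266, and MVD, mevalonate decarboxylase, at 56.0 against 144. SQLE, squalene epoxidase, was near level at 80.1 and 76.5.

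Few nuclear receptor genes passed 2-fold between the vehicle libraries, and more did on the ribosomal scaling or against the GSK805 vehicle library. Of 20 compared clock genes, related nuclear receptors and coregulators (median -0.07, or 0.54 on the ribosomal scaling), 2 were higher in HCC70, among them the clock factor NPAS2 (24.8 against 8.59), and 1 in MDA-MB468, the clock repressor PER1 (1.51 against 5.74). Of 19 other nuclear receptors, 2 were higher in HCC70 and 1 in MDA-MB468 (median 0.18, or -0.08 on the housekeeping scaling), with the adipogenic receptor PPARG at 13.4 against 3.02. Against the GSK805 vehicle library the counts were 7 toward HCC70 and 5 toward MDA-MB468 in the former list and 7 and 2 in the latter. On the ribosomal scaling they were 8 and 1 in the former and 7 and 1 in the latter.

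Sterol handling and fatty acid genes held single wide gaps within groups of near-even medians. Of 23 sterol regulators and transporters, 3 were higher in each line (median 0.25), against 10 and 2 on the ribosomal scaling (0.86) and 2 and 3 on the housekeeping scaling (-0.02). The cholesterol exporter ABCA1 was at 2.22 against 0.24 FPKM and the lysosomal exporter NPC1 at 26.4 against 11.2, while the sterol carrier STARD4 was at 1.36 against 5.85 and APOE was listed at 0 against 4.25. SREBF2, the transcription factor that drives sterol synthesis, stood at 137 and 123. Of 27 fatty acid and lipid droplet genes, 5 were higher in HCC70 and 7 in MDA-MB468 (median -0.28, or 0.33 on the ribosomal scaling). FASN, fatty acid synthase, was at 79.2 against 449 FPKM and carnitine acetyltransferase CRAT at 0.91 against 49.0. FABP5, a fatty acid carrier of squamous epithelium, stood at 260 against 0.07 and the droplet coat PLIN2 at 126 against 24.4.

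Detoxifying enzymes were higher in HCC70 at 15 of 28 and in MDA-MB468 at 5, with a median of 1.23. The aldose reductase AKR1B1 stood at 1244 against 27.0 FPKM, the retinaldehyde dehydrogenase ALDH1A1 at 34.2 against 0.37 and AKR1C3 at 230 against 16.8. AKR1C2 (21.5 against 180) and ALDH3B2 (0.09 against 108) went the other way, and the AKR1C genes are close copies, so reads may be divided wrongly among them. Of 27 glycolysis and hypoxia genes, 9 were higher in HCC70 and 4 in MDA-MB468 (median 0.26), a balance that turned to 4 and 7 on the housekeeping scaling (median -0.01) and to 5 and 9 of 28 against the GSK805 vehicle library (median -0.10). The lactate dehydrogenase chains differed, LDHA being level at 259 and 239 FPKM and LDHB at 4.15 against 42.0, and the hypoxia gene BNIP3 was at 1.28 against 14.6. In serine, one-carbon and amino acid supply 3 of 28 were higher in HCC70 and 10 in MDA-MB468 (median -0.71). The stress regulator DDIT4 was at 26.1 against 309 and PSPH, in the EGFR window, at 15.7 against 219, whereas glutamine synthetase GLUL was at 153 against 33.7 but 271 in the GSK805 vehicle library. That library gave the list 3 and 6 members past 2-fold and a median of 0.04, and the ribosomal scaling 5 and 4 and a median of -0.10. Of 23 death receptor and BCL2 family genes, 4 were higher in each line (median 0.30), against 9 and 1 on the ribosomal scaling, 2 and 5 on the housekeeping scaling, and 4 and 6 with the GSK805 vehicle library (median -0.19), with HCC70 given first. The death receptor FAS was at 3.26 against 0.67 FPKM and the survival factor BCL2 at 0.10 against 2.15.

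Some genes usually silent outside the germ line or set during development differed between the lines. Of 25 cancer testis antigens 15 were in both tables and 6 were compared, with 4 higher in MDA-MB468 and 2 in HCC70. MAGEA3 stood at 7.36 against 179 FPKM, MAGEA6 at 0.23 against 130, MAGEA12 at 0.58 against 75.4 and MAGEA2 at a listed 0 against 30.2, and these close copies share reads. PRAME (34.7 against 0.17) and MAGEA4 (2.43 against 0.03) were higher in HCC70. Of 21 compared HOX genes, which record position along the body axis, 5 were higher in HCC70 and 7 in MDA-MB468 (median -0.23, or 0.38 on the ribosomal scaling). Over all genes compared, 19.9% and 18.5% were. The HOX balance depended on the setting, with 7 higher in HCC70 and 7 in MDA-MB468 against the GSK805 vehicle library. Of the 5 higher in HCC70 between the vehicle libraries, 4 were in the HOXB cluster, with HOXB2 at 11.9 against 0.62 and HOXB7 at 21.5 against 6.04 FPKM, but HOXB4 was at 0.46 against 5.47, and HOXA4 was at 0.18 against 4.91.

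The widest gaps among abundant genes lay between high levels and values near 0 in the other vehicle library. Among 667 genes at 20 FPKM or above in HCC70 and 2-fold higher there in all 5 pairs, the 12 with the largest ratio were SERPINB4, TCN1, SERPINB3, FABP5, DMBT1, CD74, HLA-DRA, IFI16, KRT6A, CXCL17, PLCXD3 and SPRR1B. TCN1, a vitamin B12 carrier of secretions, was at 355 FPKM and listed at 0 in all 5 MDA-MB468 libraries. The mucosal defence protein DMBT1 was at 146 against a listed 0 and reached 404 within HCC70, the DNA sensor IFI16 was at 96.1 against a listed 0, and the mucosal chemokine CXCL17 was at 424 against 0.46. PLCXD3 stood at 49.6 against a listed 0. In the GSK805 vehicle library KRT6A was listed at 7.30 FPKM, CD74 at 3.25 and CXCL17 at 1.01, and the other 9 below 0.5.

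Among 537 such genes on the other side, the 12 were CYBA, EFHD1, SFRP1, SLC1A6, IGFBP5, EPB41L2, CSAG3, PEG10, ALDH3B2, CLDN10, MAGEA6 and PPP1R1B. CYBA, a subunit of the superoxide-producing NADPH oxidase, was at 492 FPKM in MDA-MB468 and listed at 0 in HCC70, where no library exceeded 0.54. SFRP1, a secreted Wnt inhibitor, was at 120 FPKM and listed at 0 in all 5 HCC70 libraries. With MDA-MB468 given first, EFHD1 stood at 274 against 0.05 FPKM, the imprinted retrotransposon-derived gene PEG10 at 121 against 0.11, the cytoskeletal linker EPB41L2 at 79.1 against 0.03, the glutamate transporter SLC1A6 at 119 against a listed 0, CSAG3 at 57.5 against a listed 0, the claudin CLDN10 at 65.5 against 0.04 and PPP1R1B at 38.4 against a listed 0. The promoter of CYBA, first of these genes, is printed with its 23 CG pairs in capitals (same window and build), the pairs at which DNA methylation occurs; methylation was not measured.
CYBA (chr16:88651004-88651303, minus strand): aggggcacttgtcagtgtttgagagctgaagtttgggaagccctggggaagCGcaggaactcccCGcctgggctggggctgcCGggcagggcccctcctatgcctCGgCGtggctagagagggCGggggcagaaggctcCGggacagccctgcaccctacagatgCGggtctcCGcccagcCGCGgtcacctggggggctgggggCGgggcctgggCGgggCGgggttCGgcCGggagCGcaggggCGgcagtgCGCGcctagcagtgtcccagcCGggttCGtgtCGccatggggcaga

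Promoter content of both on-off groups is given as a description. A promoter was found for 117 of 160 genes at 5 FPKM or above in HCC70 and under 0.5 in all 5 MDA-MB468 libraries, and their median CG count was 12, with quartiles of 3 and 28. For 73 of 109 genes with the reverse pattern the median was 22, with quartiles of 13 and 37. The quartiles overlapped. Over all compared genes the median was 26 in 10180 promoters, and over all 27305 promoters of the table it was 14. TATAAA, searched on both strands, was in 11.1% and 6.8% of the promoters of these groups in 5.6% of those compared and in 12.0% of all, and GAAANNGAA, the letters of interferon response elements, in 7.7%, 5.5%, 6.5% and 8.3%.

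**Figure D5:**
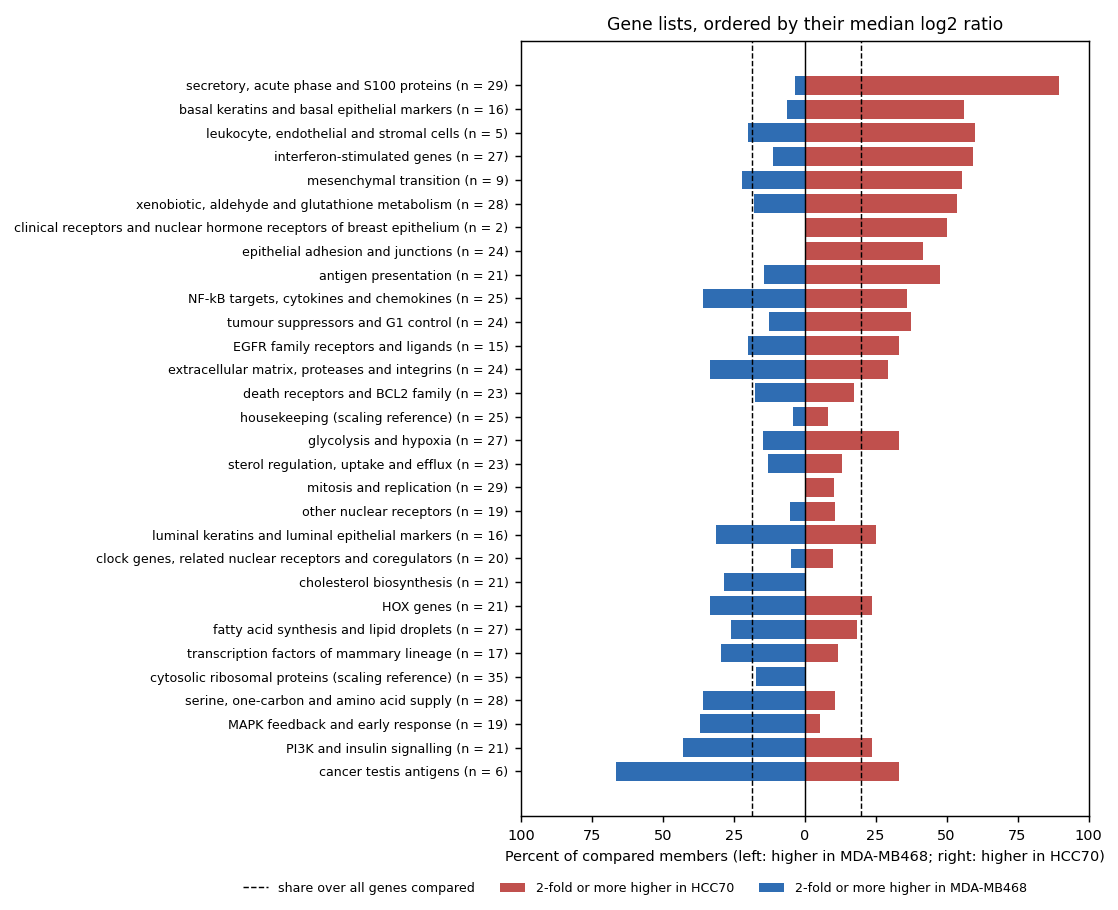
For each gene list, bars give the percent of its compared members (n in brackets) that were 2-fold or more higher in HCC70 (red, right) or MDA-MB468 (blue, left), ordered by median log2 ratio, with dashed lines at the share over all genes, 19.9% and 18.5%. Secretory, acute phase and S100 proteins head the order with 26 of 29 members toward HCC70, and the cancer testis antigens end it with 4 of 6 toward MDA-MB468.

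The reference lists bound how far small ratios can be read. Of 35 cytosolic ribosomal protein genes none was higher in HCC70 and 6 were higher in MDA-MB468, with a median of -0.61, and of 25 housekeeping genes 2 were higher in HCC70 and 1 in MDA-MB468, with a median of 0.27. Most genes past 2-fold passed it again, in the same direction, against the GSK805 vehicle library, which is again normalized apart. Of 2454 genes called higher in HCC70 with a value there, 1930 were again 2-fold or more higher in HCC70 and 21 were 2-fold or more lower; of 2220 called higher in MDA-MB468, 1722 were again higher and 31 lower. Among genes named above, B2M, CBL, EEF1A1, FOS, GLUL, IFITM2, IFITM3, IGFBP2, ITGA6, KRT8, KRT18, NPC1, SOX9 and SPRY4 were less than 2-fold apart there. These comparisons share the HCC70 library. Over all 12695 genes compared with the GSK805 vehicle library, 3065 were higher in HCC70 and 3151 in MDA-MB468. Counts of further lists follow for the ribosomal scaling, the housekeeping scaling and the GSK805 vehicle library, in that order and with HCC70 first. Interferon-stimulated genes had 22 and 1, 15 and 3, and 18 and 1. Secretory, acute phase and S100 proteins had 27 and 1, 26 and 1, and 22 and 2. Basal markers had 10 and 0, 9 and 2, and 9 and 2. Detoxifying enzymes had 17 and 4, 12 and 7, and 12 and 7. Luminal genes had 7 and 3, 3 and 5, and 3 and 3, and mammary transcription factors 4 and 3, 2 and 5, and 4 and 4. The EGFR family had 8 and 2, 5 and 3, and 8 and 3, and fatty acid genes 8 and 4, 4 and 8, and 4 and 10. HOX genes had 7 and 6, 5 and 9, and 7 and 7, and insulin signalling genes, on the housekeeping scaling and with that library, 2 and 11 and 3 and 11. The balance of luminal, mammary, fatty acid and HOX genes thus depended on the setting. That of secretory, basal, interferon-stimulated, detoxifying and EGFR family genes stayed toward HCC70 in these 3 settings.

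Some genes could not be compared. The HCC70 table listed 107 genes that the MDA-MB468 table did not, 6 of them at 1 FPKM or above, among them the chemokine CXCL6 (5.68 FPKM) and the defensin DEFB4A (1.96) beside the SPRR2 genes. The MDA-MB468 table listed 1833 others, 47 at 1 FPKM or above, led by the antigen XAGE2 (32.4 FPKM), the fatty acid oxidation enzyme ECI2 (29.0), CBSL (24.97), the transcription factor TWIST2 (10.7) and CYP2S1 (8.70). Among compared genes, 34 at 10 FPKM or above in HCC70 were listed at 0 in the MDA-MB468 vehicle library, 12 of them in all 5 libraries of the line, and 19 the other way, 6 of them in all 5. Just inside the 1 FPKM limit were KIF5C (0.14 against 1.00 FPKM) and NRROS (listed at 0 against 1.00), and just outside were LINGO1 (listed at 0 against 0.99) and FAM227A (0.99 against 0.88).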

How the data were processed

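RNA-seq libraries (Illumina TruSeq) were mapped by the authors to GRCh37 (hg19) with BWA and Bowtie and quantified with Cufflinks, by the study's methods and the submitters' processing notes, which give no versions. The authors deposited FPKM values in 3 tables that were each normalized on their own; no counts were used, and 1 column of per-sample values, that of GSK805-treated cells, was not used. Genes of the HCC70 and MDA-MB468 tables were joined by Entrez ID, and 28 symbols altered to dates were replaced by RefSeq symbols. Names in the GSK805 table were joined by symbol (17676) or RefSeq synonym (410).

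Log2 ratios used a pseudocount of 0.1, genes at 1 FPKM or above in either vehicle library, centring on the median and a 2-fold threshold. No test was run: each line had 1 vehicle library in the experiment, the treated libraries are not its replicates, and the second MDA-MB468 vehicle library belongs to a table normalized apart. Alternatives changed the pseudocount, filter, scaling, threshold, window length or MDA-MB468 library. Depth was estimated from the spacing of low FPKM values of genes with 1 listed transcript and the lengths in GENCODE release 44, lifted to GRCh37, which also gave positions (12410 of 12460 genes), and 95% counting intervals are Clopper-Pearson intervals on estimated fragments, left out where either library had 3 or fewer; they cover counting error only. The steps were checked on simulated data (scipy 1.17.1 and pandas 2.3.3 under python 3.11.15).

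Named genes were list members (the farthest from 0 at 5 FPKM or above, and defining members), the 12 largest ratios per direction at 20 FPKM or above and 2-fold in all 5 pairs, the 5 most abundant genes per library or per table alone, up to 6 genes of a window, and genes at the 1 FPKM limit. The comparison and all 30 gene lists were chosen with earlier results of these data known. Promoters came from RefSeq (GRCh38.p14) and matched 10180 of the 12460 genes. Further genes of a list or run were named after their values were seen, as were the CCAAT motif and the promoters shown. Some genes are not reported here.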

Additional observations from a re-analysis of the deposited data

How the results depend on the processing

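No paired fit was run: the values come from no test, and libraries of the same treatment were paired for counts only. The vehicle comparison within the experiment has 1 library per line, so none could be left out. The count higher in HCC70 (2484) became 4488 when centred on ribosomal protein genes, 3751 at 1.5-fold and 1044 at 4-fold; the count higher in MDA-MB468 (2305) became 1273, 3612 and 942. In all 5 pairs, 2711 and 2491 genes passed 1.5-fold and 727 and 585 passed 4-fold. The highest and lowest window medians were 7.49 and -7.29 over 10 genes and 1.70 and -2.11 over 40. The other planned settings kept these counts within 1.5 times. For 47 of the genes named here under 12 settings, 553 of 564 values kept direction and side of the threshold, 10 fell short of it, 1 passed it and none of these reversed. They include the genes of largest ratio, which lie far from 2-fold, and a changed threshold leaves a ratio as it was. That stability therefore cannot be read as holding for other named genes. FN1, outside these 47, turned toward MDA-MB468 against the GSK805 vehicle library (61.9 against 334 FPKM). Against the GSK805 vehicle library the number of members past 2-fold rose over 1.5 times for the junction, clock, other nuclear receptor, mitosis, ribosomal and housekeeping lists. The cause was not tested.

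The estimated depth limits genes near 1 FPKM, and FPKM scaled apart cannot show a change common to most genes.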
